A study of Mus musculus with 8 samples.

Results

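A set of 52 genes for lysosomal hydrolases, membrane proteins and the proton pump was followed in cultured mouse bone marrow adipocytes. They were taken by symbol from a list drawn up by function, with earlier results of these data known. The list holds 31 soluble lumenal proteins, namely 10 cathepsins, 3 other proteases and granulin, 12 glycosidases with 1 sulfatase among them, and 6 lipid hydrolases and activators. It also holds 7 membrane proteins and 14 subunits or accessory proteins of the pump. All 52 had at least 1 TPM (a transcript level per gene length and per library total) in at least 2 libraries and so entered the test with 14985 of the 54134 genes in the deposited table.

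Wild-type bone marrow stem cells were differentiated for 14 days with an adipogenesis kit, and RNA was sequenced after Smart-Seq2 library preparation, which carries no strand information. All 3 groups share this differentiation. The Control group (n = 2) had no further treatment named in its labels. The GC group (n = 3) received the synthetic glucocorticoid dexamethasone at 1e-06 M, and the GC+GW9662 group (n = 3) received the same dose with the PPARγ inhibitor GW9662, whose dose the labels do not give, each for 24 hours. The series compares glucocorticoid with and without the inhibitor in a setting of senescence. Whether replicates came from separate cultures is not in the labels, and the p-values here therefore reflect spread among these libraries that may be technical.

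The lysosome breaks down proteins, glycans and lipids with acid hydrolases, most of them delivered by receptors for a mannose phosphate tag, and a proton pump, the V-ATPase, keeps its lumen acidic. Lysosomal gene expression is in part set by MiT/TFE transcription factors such as TFEB, which bind the palindrome CACGTG in the CLEAR element of many lysosomal promoters. The pump has a membrane sector, V0, that conducts protons and a cytosolic sector, V1, that hydrolyses ATP. Macrophages and osteoclasts are rich in lysosomes, whereas in adipocytes lysosomal acid lipase takes part in the turnover of stored lipid.

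Of the 52 genes, 45 had a promoter window from 250 bases before to 50 bases after the transcription start in RefSeq (GRCm38.p6). CACGTG, searched on both strands, was in 15 of these windows (33.3%), against 8.09% of the windows of all 27025 genes. The longer palindrome TCACGTGA, which contains it, was in 7 windows (15.6%), against 1.12% of all. The related GTCACGTG was in 10 windows (22.2%), against 2.55%. The palindrome that completes GTCACGTG, 10 bases long, was in 0 windows (0%), against 0.37% of all. The 30 bases around each TCACGTGA are shown because these genes span the groups whose RNA levels moved in different ways. They run 5′ to 3′ on the gene's strand, with the palindrome in capitals.
Atp6v0d1, chr8:105566050-105566079, minus strand: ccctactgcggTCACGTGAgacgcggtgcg
Atp6v0e, chr17:26676387-26676416, plus strand: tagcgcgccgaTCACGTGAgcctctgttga
Atp6v1a, chr16:44139373-44139402, minus strand: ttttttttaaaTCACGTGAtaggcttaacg
Ctsa, chr2:164833749-164833778, plus strand: tgagcaaactgTCACGTGAtgcagatgctc
Ctsd, chr7:142387908-142387937, minus strand: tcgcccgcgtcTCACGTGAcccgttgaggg
Gla, chrX:134601215-134601244, minus strand: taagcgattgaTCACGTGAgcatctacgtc
Mcoln1, chr8:3500462-3500491, plus strand: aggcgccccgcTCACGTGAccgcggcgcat
The palindrome lies before the RefSeq start in 5 of these genes, across it in Atp6v0d1 and after it in Atp6v0e. By group, CACGTG was in 4 of 8 cathepsin windows, 4 of 12 glycosidase windows, 0 of 5 lipid hydrolase windows, 1 of 3 of the other proteases and granulin, 2 of 7 membrane protein windows and 4 of 10 pump windows. A match describes the letters only, and no binding was measured. The 27025 genes were not limited to genes expressed here, whereas all 52 genes of the set were expressed.

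Features of the libraries bear on all results. The glucocorticoid-induced genes Fkbp5 and Tsc22d3 were highest in the libraries labelled Control, with mean levels of 446 and 557 TPM there, 58.5 and 59.6 TPM in GC and 95.4 and 429 TPM in GC+GW9662, so Control, GC and GC+GW9662 stand for the labels and every direction rests on them. Ferritin heavy chain, Fth1, rose from a mean of 37273 TPM in Control to 134030.0 TPM in GC and was 38046 TPM in GC+GW9662, which lowers the share left for other genes in the GC libraries. Adipocyte markers summed to 1208 and 1209 TPM in Control, 52.9, 37.8 and 45.3 TPM in GC, and 1126, 1281 and 1180 TPM in GC+GW9662, with Lep at 0 in all libraries. Macrophage markers summed to 35424 and 34860 TPM in Control, 8422, 7787 and 8285 TPM in GC, and 34820, 30868 and 33928 TPM in GC+GW9662, far above the adipocyte markers of the labelled cell type. Of the 19 macrophage markers, 18 fell in GC against Control and 17 rose in GC+GW9662 against GC. Of all genes tested, 39.1% fell in the first of these comparisons and 28.3% rose in the second. Longer genes were lower: by bins of exon length, the median log2 difference in GC against Control ran from 0.18 in the shortest to -1.09 in the longest. It ran from 0.40 to -0.51 in GC+GW9662 against GC and, most steeply, from 0.59 to -1.68 in GC+GW9662 against Control. The soluble lumenal genes have a median exon length of 4127 bases and the pump genes of 3548 bases. Stromal markers summed to 5810 to 6073 TPM in Control, 86.7 to 125 TPM in GC and 3298 to 3393 TPM in GC+GW9662, and osteoclast markers to 295 to 301, 243 to 287 and 169 to 197 TPM. Neutrophil markers went the other way, with mean sums of 23.9 TPM in Control, 382 TPM in GC and 79.3 TPM in GC+GW9662. Of the 8 neutrophil markers 2 were tested, and 1 rose in GC against Control. Lymphocyte markers had mean sums of 8.21, 10.4 and 19.8 TPM in the same order. The part of markers in the lysosomal results was not tested. In bulk RNA, fewer cells of a type and less RNA per cell cannot be told apart.

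In GC against Control, the pump genes and the soluble lumenal proteins of this set moved mostly in different directions. Of the 14 pump genes 10 rose, 0 fell and 4 did not pass the test, and of the 31 soluble lumenal proteins 3 rose, 23 fell and 5 did not pass. Among the 7 membrane proteins 1 rose, 2 fell and 4 did not pass. The test was limma on log2(TPM + 1) over all 8 libraries, with Benjamini-Hochberg adjustment over all genes tested and a threshold of 0.05. It called 55.3% of all genes, 16.2% as higher and 39.1% as lower, so the share of soluble genes that fell is to be read against a general excess of falls. The GC and Control libraries did not overlap for 47 of the 52 genes, with 71.9% of all genes so separated. The median log2 difference was 0.87 for the pump and -1.25 for the soluble proteins, against -0.38 for all genes. Among called genes, 29.3% were higher, and this split became 50.8% with median-ratio scaling, 51.7% with quantile normalization and 51.6% after removal of a trend with exon length. Under these settings the pump had 13, 11 and 12 rises and the soluble group 17, 20 and 18 falls.

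**Figure D1:**
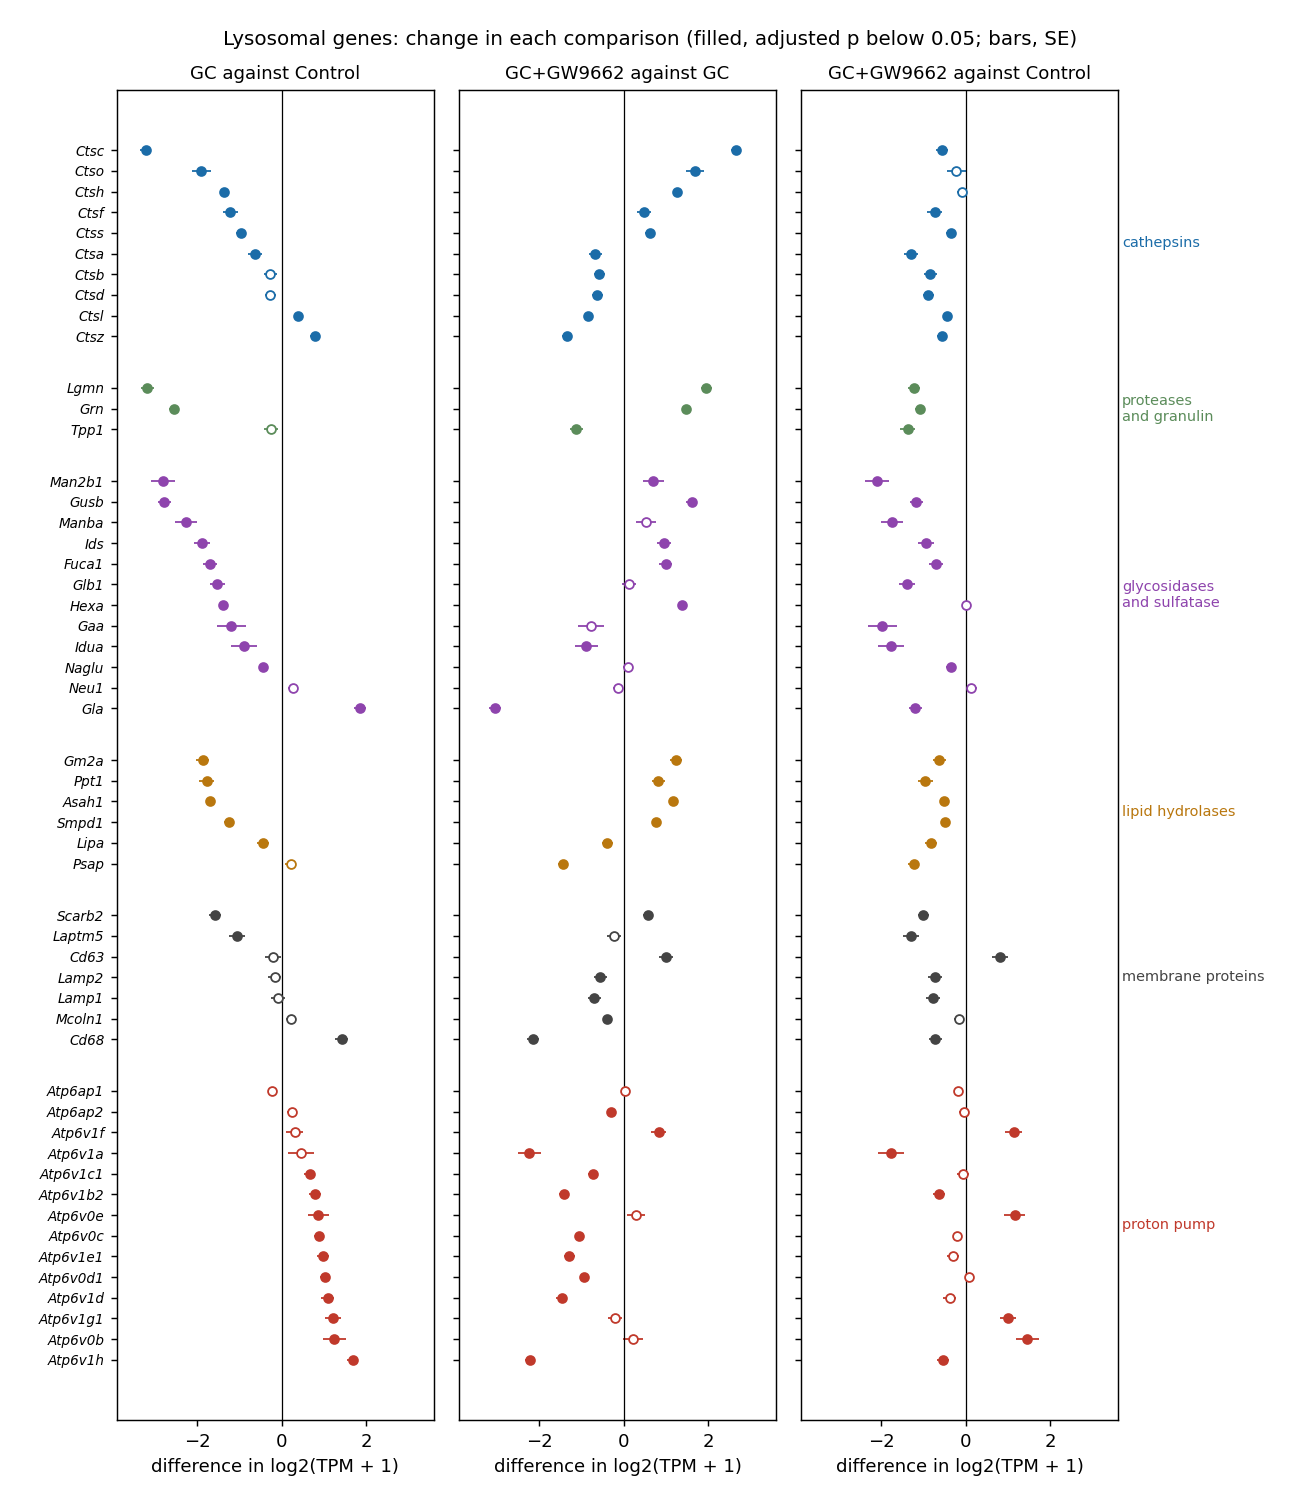
Difference in log2(TPM + 1) (x axis) of each of the 52 genes (y axis, grouped by role) in the 3 comparisons (panels), with bars for the SE and filled points for an adjusted p below 0.05. In GC against Control the pump genes lie mostly to the right of 0 (10 rises, 0 falls) and the soluble proteins mostly to the left (3 rises, 23 falls).

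Among the cathepsins, the lysosomal proteases, the deepest fall was in Ctsc, the dipeptidyl peptidase that activates granule serine proteases (chr7:88278085-88310888, GRCm38). The levels of Ctsc were 83.2 and 78.9 TPM in Control, 7.96, 7.92 and 7.48 TPM in GC, and 57.2, 48.3 and 57.9 TPM in GC+GW9662. All GC libraries were below all others, and the groups did not overlap. Ctsc fell by 3.22 ± 0.13 (SE) on the log2 scale in GC against Control (limma adjusted p = 9.48e-07) and rose by 2.65 ± 0.12 (adjusted p = 1.31e-06) in GC+GW9662 against GC. Ctso, a papain-like cysteine cathepsin, had 24.2 and 22.8 TPM in Control, 5.95, 5.07 and 5.62 TPM in GC, and 27.2, 15.5 and 18.8 TPM in GC+GW9662. It was lowest in GC, and Control lay within the range of GC+GW9662. The log2 difference of Ctso was -1.91 ± 0.23 (adjusted p = 0.000224) in GC against Control and 1.68 ± 0.21 (adjusted p = 0.000251) in GC+GW9662 against GC.

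Ctsz and Ctsl were the 2 cathepsins that rose. Ctsz, a carboxypeptidase, had 698 and 689 TPM in Control, 1112, 1276 and 1216 TPM in GC, and 515, 421 and 473 TPM in GC+GW9662. Ctsl, a broad endopeptidase, had 823 and 784 TPM in Control, 1031, 1055 and 1081 TPM in GC, and 629, 539.8 and 596 TPM in GC+GW9662. For both, GC was the highest group, GC+GW9662 the lowest, and no groups overlapped. The log2 difference of Ctsz was 0.79 ± 0.11 (adjusted p = 0.000592) in GC against Control and -1.36 ± 0.10 (adjusted p = 1.81e-05) in GC+GW9662 against GC. For Ctsl the values were 0.39 ± 0.10 (adjusted p = 0.00938) and -0.85 ± 0.09 (adjusted p = 0.000103), the second not passing with the length trend removed. The Ctsl rise did not pass when either Control library was left out or with a block for the number in the sample titles.

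The 2 most abundant cathepsins did not pass in the first comparison. Ctsb, a cysteine protease, had 4134 and 4066 TPM in Control, 3167, 3589.7 and 3477 TPM in GC, and 2633, 1871 and 2405 TPM in GC+GW9662. Ctsd, the main aspartic protease of the lysosome, had 3615 and 3552 TPM in Control, 2662, 3251 and 3058 TPM in GC, and 2154, 1679 and 1989 TPM in GC+GW9662. In both genes the levels stepped down from Control to GC to GC+GW9662 with no overlap between groups. The log2 difference in GC against Control was -0.27 ± 0.15 (adjusted p = 0.164) for Ctsb and -0.27 ± 0.14 (adjusted p = 0.13) for Ctsd, and in GC+GW9662 against GC it was -0.58 ± 0.13 (adjusted p = 0.00638) and -0.63 ± 0.12 (adjusted p = 0.00272). With the length trend removed, the Ctsb difference in GC+GW9662 against GC was -0.13 and did not pass (limma adjusted p = 0.439). Ctsb and Ctsa share 12.8% and 10.5% of their exon bases with a neighbouring gene, and Ctsd shares 34.4% with a gene model listed at 0.

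Ctss, a cathepsin of antigen-presenting cells, had 2071 and 1949.6 TPM in Control, 1102, 964 and 1044 TPM in GC, and 1737, 1405 and 1629.5 TPM in GC+GW9662. GC was the lowest group and none overlapped. The log2 difference was -0.96 ± 0.12 (adjusted p = 0.000255) in GC against Control and 0.61 ± 0.11 (adjusted p = 0.00153) in GC+GW9662 against GC. With median-ratio scaling the first of these was -0.41 and did not pass (limma adjusted p = 0.1). Of the remaining cathepsins, Ctsh fell from a mean of 120.1 to 46.2 TPM and Ctsf from 47.9 to 20.2 TPM. Counted over the group, 2 cathepsins rose, 6 fell and 2 did not pass in GC against Control, beside 55.3% of all genes called. In GC+GW9662 against GC 5 rose and 5 fell, beside 61.7% of all genes called. The rise of Ctsf in that comparison was lost in 10 of 21 alternative settings.

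Ctsa, the protective protein of the galactosidase and neuraminidase complex, had 582 and 555 TPM in Control, 316, 419.8 and 379 TPM in GC, and 265, 192 and 241 TPM in GC+GW9662. Its levels stepped down from Control to GC to GC+GW9662 with no overlap between groups. The log2 difference was -0.62 ± 0.17 (adjusted p = 0.0133) in GC against Control and -0.68 ± 0.15 (adjusted p = 0.00509) in GC+GW9662 against GC. The first call was lost in 6 of 21 alternative settings, and the difference was -0.077 with median-ratio scaling and -0.019 with the length trend removed.

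Legumain and granulin fell steeply. Lgmn, an asparaginyl endopeptidase that matures other cathepsins, had 1668 and 1556 TPM in Control, 157, 198 and 178 TPM in GC, and 766, 590.4 and 722 TPM in GC+GW9662. Grn, the precursor of lysosomal granulins, had 1619 and 1541 TPM in Control, 241, 289 and 277 TPM in GC, and 802, 681 and 763 TPM in GC+GW9662. Both were lowest in all GC libraries and intermediate in GC+GW9662, with no overlap. Lgmn had a log2 difference of -3.18 ± 0.14 (adjusted p = 1.5e-06) in GC against Control and 1.95 ± 0.13 (adjusted p = 9.44e-06) in GC+GW9662 against GC. For Grn these were -2.55 ± 0.12 (adjusted p = 1.53e-06) and 1.47 ± 0.10 (adjusted p = 1.36e-05). Tpp1, a tripeptidyl peptidase, had 169.8 and 165 TPM in Control, 114, 165 and 145 TPM in GC, and 68.8, 55.3 and 67.9 TPM in GC+GW9662. GC replicate 2 lay between the Control libraries and GC+GW9662 was the lowest group. Its log2 difference was -0.26 ± 0.17 (adjusted p = 0.243) in GC against Control and -1.12 ± 0.15 (adjusted p = 0.00046) in GC+GW9662 against GC.

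Of the 12 glycosidases and sulfatase, 10 fell in GC against Control, 1 rose and 1 did not pass, beside 55.3% of all genes called. The rise was in Gla, the α-galactosidase that degrades globotriaosylceramide (chrX:134588149-134601125, GRCm38). The levels of Gla were 60.6 and 59.5 TPM in Control, 182, 249 and 235 TPM in GC, and 26.8, 24.7 and 25.5 TPM in GC+GW9662. GC was far above both other groups and GC+GW9662 was the lowest, with no overlap. Gla differed by 1.86 ± 0.15 (adjusted p = 2.4e-05) in GC against Control and by -3.05 ± 0.13 (adjusted p = 1.14e-06) in GC+GW9662 against GC, a mean level 8.65 times lower with the inhibitor. Its promoter holds the palindrome printed above. Of the 7 genes with that palindrome, 3 rose in GC against Control (Gla, Atp6v0d1 and Atp6v0e), 1 fell (Ctsa) and 3 did not pass (Atp6v1a, Ctsd and Mcoln1). Of all genes, 55.3% were called in this comparison.

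Gusb, β-glucuronidase, had 362 and 348 TPM in Control, 49.3, 51.99 and 51.4 TPM in GC, and 179.6, 127 and 169.8 TPM in GC+GW9662. Man2b1, a lysosomal α-mannosidase, had 401 and 377 TPM in Control, 35.5, 75.5 and 61.2 TPM in GC, and 97.5, 76.9 and 95.7 TPM in GC+GW9662. Gusb was lowest in GC and intermediate in GC+GW9662, while Man2b1 was low in both treated groups with its GC libraries spread more widely. In GC against Control the log2 difference was -2.78 ± 0.15 (adjusted p = 3.76e-06) for Gusb and -2.81 ± 0.28 (adjusted p = 8.28e-05) for Man2b1, and in GC+GW9662 against GC it was 1.61 ± 0.14 (adjusted p = 3.59e-05) and 0.70 ± 0.25 (adjusted p = 0.041). The last call was lost in 12 of 21 alternative settings.

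Hexa, which takes part in the breakdown of GM2 ganglioside, had 577 and 577 TPM in Control, 231, 214 and 217 TPM in GC, and 612, 522 and 603 TPM in GC+GW9662. Only GC was low, and the Control libraries lay between the GC+GW9662 libraries. The log2 difference was -1.38 ± 0.10 (adjusted p = 1.76e-05) in GC against Control, 1.38 ± 0.09 (adjusted p = 9.97e-06) in GC+GW9662 against GC and 0.00 ± 0.10 in GC+GW9662 against Control. Hexa shares 12.8% of its exon bases with Tmem202. Glb1, the β-galactosidase whose activity is read in the senescence stain, had 62.2 and 61.8 TPM in Control, 17.6, 23.4 and 22.4 TPM in GC, and 26.8, 19.01 and 23.5 TPM in GC+GW9662. Both treated groups were below Control and overlapped each other. Its log2 difference was -1.52 ± 0.18 (adjusted p = 0.000228) in GC against Control and 0.12 ± 0.16 (adjusted p = 0.537) in GC+GW9662 against GC.

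The other falls among glycan-degrading enzymes in GC against Control were those of Manba, which cleaves β-mannosides, from 30.0 to 5.71 TPM, Ids, an iduronate sulfatase, from 89.5 to 23.6 TPM, Fuca1, a fucosidase, from 301 to 92.9 TPM, Gaa, the acid α-glucosidase, from 83.5 to 38.8 TPM, Naglu, which acts on heparan sulfate, from 95.5 to 70.5 TPM, and Idua, an iduronidase, from 22.6 to 12.4 TPM. Of these, the calls for Idua, Gaa and Naglu were lost in 14, 5 and 6 of 21 alternative settings. Neu1, a sialidase, had means of 43.2, 52.4 and 47.3 TPM and passed in none of the 3 comparisons (limma adjusted p = 0.095, 0.282 and 0.388). It passed as higher in 4 of 21 alternative settings in GC against Control and in 3 in GC+GW9662 against Control.

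**Figure D2:**
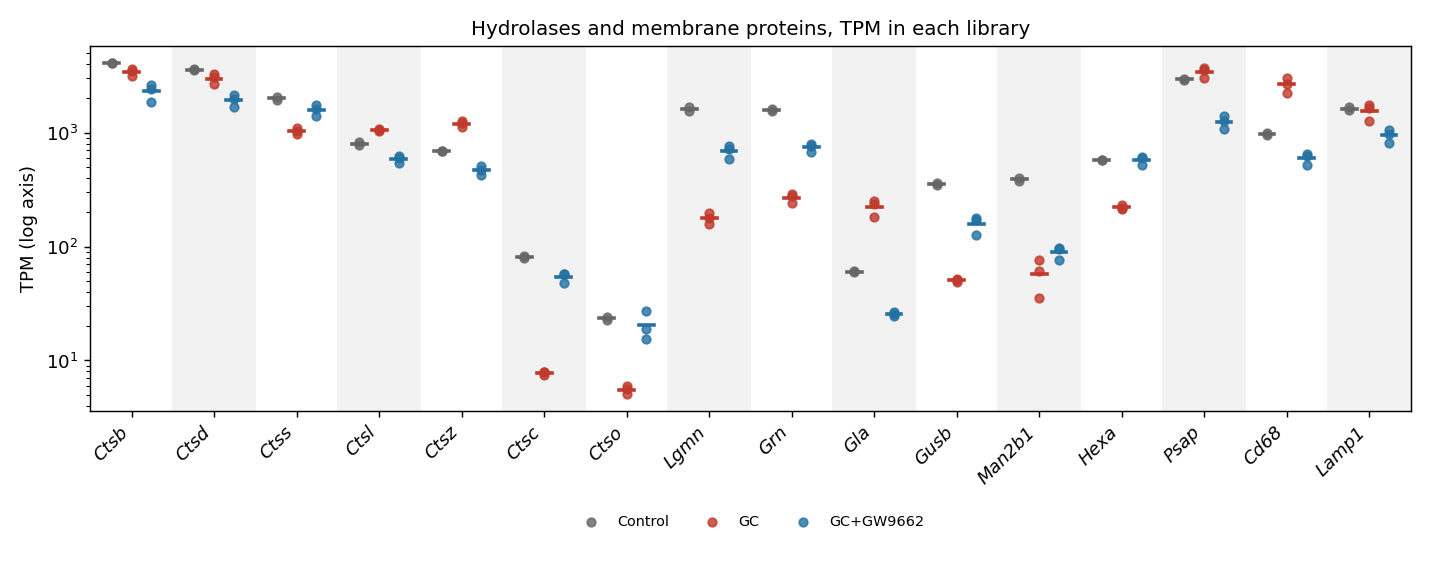
TPM (log axis) of named hydrolases and membrane proteins in each of the 8 libraries (points, coloured by group) with group means (bars). Ctsc, Lgmn, Grn and Gusb are lowest in the GC libraries, and Gla, Ctsz and Cd68 are highest there.

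Among the 6 lipid hydrolases and activators 5 fell in GC against Control and 1 did not pass, beside 55.3% of all genes called. Gm2a, the activator that presents GM2 ganglioside, had 126 and 124 TPM in Control, 29.7, 38.2 and 32.7 TPM in GC, and 90.9, 69.3 and 81.8 TPM in GC+GW9662. Ppt1, which removes palmitate from proteins, had 223 and 208 TPM in Control, 54.4, 70.1 and 62.6 TPM in GC, and 121, 88.0 and 126 TPM in GC+GW9662. GC was the lowest group for both and GC+GW9662 lay between it and Control. The log2 difference was -1.87 ± 0.15 (adjusted p = 2.88e-05) for Gm2a and -1.78 ± 0.18 (adjusted p = 8.16e-05) for Ppt1 in GC against Control, and 1.24 ± 0.14 (adjusted p = 0.000151) and 0.82 ± 0.16 (adjusted p = 0.00282) in GC+GW9662 against GC. Asah1, acid ceramidase, fell from 395 to 122 TPM and Smpd1, acid sphingomyelinase, from 118 to 49.2 TPM. Lipa, lysosomal acid lipase, had means of 978, 722 and 555 TPM and a fall of 0.44 in GC against Control that was lost in 12 of 21 alternative settings.

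Psap, the precursor of the saposins, had 2973 and 2897 TPM in Control, 3013, 3667 and 3527 TPM in GC, and 1400.3, 1077 and 1276 TPM in GC+GW9662. It was much lower in GC+GW9662 than in both other groups. Its log2 difference was 0.21 ± 0.14 (adjusted p = 0.236) in GC against Control and -1.45 ± 0.12 (adjusted p = 3.64e-05) in GC+GW9662 against GC. The first passed as a rise in 3 of 21 alternative settings.

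Of the membrane proteins, Cd68, a heavily glycosylated protein of macrophage lysosomes, was the 1 that rose in GC against Control. The levels of Cd68 were 1001 and 956 TPM in Control, 2226, 3028 and 2698 TPM in GC, and 619, 516 and 647 TPM in GC+GW9662. GC was above both other groups and GC+GW9662 below both, with no overlap. The log2 difference of Cd68 was 1.43 ± 0.15 (adjusted p = 0.000119) and then -2.15 ± 0.14 (adjusted p = 7.75e-06), while 18 of the 19 macrophage markers went the opposite way in the first comparison and 17 in the second.

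Lamp1 and Lamp2, the most abundant proteins of the lysosomal membrane, were compared next. Lamp1 had 1669.8 and 1575 TPM in Control, 1271, 1742 and 1639 TPM in GC, and 1063, 812 and 982 TPM in GC+GW9662. Lamp2 had 471 and 459 TPM in Control, 363, 451 and 431 TPM in GC, and 322, 229 and 300.4 TPM in GC+GW9662. GC overlapped Control for Lamp1, all GC libraries were below Control for Lamp2, and GC+GW9662 was the lowest group for both. In GC against Control the log2 differences were -0.08 ± 0.16 (adjusted p = 0.72) and -0.17 ± 0.16 (adjusted p = 0.406), and they became 0.47 and 0.37 with median-ratio scaling. In GC+GW9662 against GC they were -0.70 ± 0.15 (adjusted p = 0.00417) and -0.55 ± 0.15 (adjusted p = 0.0114). With the length trend removed the Lamp2 values were 0.77, which passed, and -0.020, which did not (limma adjusted p = 0.92).

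Scarb2, an abundant protein of the lysosomal membrane also known as LIMP-2, had 98.6 and 101 TPM in Control, 31.1, 33.9 and 33.3 TPM in GC, and 52.5, 42.4 and 53.3 TPM in GC+GW9662. Laptm5, a transmembrane protein of blood cell lysosomes, had 1070.3 and 1043 TPM in Control, 384, 624 and 545 TPM in GC, and 453, 396 and 446 TPM in GC+GW9662. Both were below Control in the 2 treated groups. The log2 difference in GC against Control was -1.58 ± 0.13 (adjusted p = 3.28e-05) for Scarb2 and -1.06 ± 0.19 (adjusted p = 0.00191) for Laptm5, and in GC+GW9662 against GC it was 0.57 ± 0.12 (adjusted p = 0.00396) and -0.23 ± 0.17 (adjusted p = 0.256).

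Cd63, a tetraspanin of late endosomes and lysosomes, was higher with the inhibitor than in both other groups. The levels of Cd63 were 297 and 326 TPM in Control, 349, 213 and 265 TPM in GC, and 562, 549.5 and 522 TPM in GC+GW9662. GC+GW9662 was the highest group, and GC and Control overlapped. The log2 difference was -0.20 ± 0.19 (adjusted p = 0.39) in GC against Control and 1.01 ± 0.17 (adjusted p = 0.00126) in GC+GW9662 against GC. The pseudogene Cd63-ps had 243 and 270.0 TPM in Control, 292, 165 and 218 TPM in GC, and 458, 499.8 and 441 TPM in GC+GW9662, so the level of Cd63 is uncertain, since reads could be split between the copies. Mcoln1, the lysosomal calcium channel TRPML1, had means of 48.6, 57.2 and 43.6 TPM, with log2 differences of 0.23 ± 0.12 (adjusted p = 0.139) and -0.39 ± 0.11 (adjusted p = 0.0142). The first passed in 4 of 21 alternative settings, and the second was lost in 3.

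In the proton pump, all 4 V0 genes and 6 of the 8 V1 genes rose in GC against Control, and neither accessory gene passed. Of all genes, 16.2% were called as higher there. Atp6v1h, the regulatory subunit that couples the sectors (chr1:5070018-5162529, GRCm38), had 73.3 and 70.8 TPM in Control, 215, 245 and 239.8 TPM in GC, and 54.1, 41.7 and 52.3 TPM in GC+GW9662. All GC libraries were above all others, and no groups overlapped. It rose by 1.68 ± 0.14 (adjusted p = 2.77e-05) in GC against Control, to a mean 3.24 times that of Control, and differed by -2.23 ± 0.12 (adjusted p = 3.78e-06) in GC+GW9662 against GC.

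Atp6v0c, which forms the proton-carrying ring, had 51.1 and 50.4 TPM in Control, 93.2, 95.2 and 92.8 TPM in GC, and 45.4, 41.2 and 45.6 TPM in GC+GW9662. Atp6v0d1, which joins the ring to the stalk, had 361 and 349.9 TPM in Control, 708, 719 and 728 TPM in GC, and 403, 348 and 369 TPM in GC+GW9662. GC was the highest group for both, and GC+GW9662 overlapped Control for Atp6v0d1. In GC against Control the log2 difference was 0.87 ± 0.10 (adjusted p = 0.000219) for Atp6v0c and 1.01 ± 0.10 (adjusted p = 5.91e-05) for Atp6v0d1, and in GC+GW9662 against GC it was -1.07 ± 0.09 (adjusted p = 4.07e-05) and -0.95 ± 0.09 (adjusted p = 4.88e-05). The V1 genes Atp6v1b2, Atp6v1c1, Atp6v1d and Atp6v1e1, which belong to the catalytic head and the stalks, had the same course. Their log2 differences were 0.79, 0.66, 1.09 and 0.98 in GC against Control and -1.42, -0.73, -1.48 and -1.29 in GC+GW9662 against GC, where that of Atp6v1c1 did not pass with the length trend removed.

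Atp6v0b, a second ring subunit, had 606 and 784 TPM in Control, 2381, 1193 and 1545 TPM in GC, and 1759, 2099 and 1835 TPM in GC+GW9662. Atp6v0e, a small V0 subunit, had 213 and 235 TPM in Control, 587, 298 and 388 TPM in GC, and 456, 556 and 487 TPM in GC+GW9662. Both treated groups were above Control and overlapped each other, and GC replicate 1 was the highest GC library. The log2 difference of Atp6v0b was 1.25 ± 0.27 (adjusted p = 0.00451) in GC against Control and 0.21 ± 0.24 (adjusted p = 0.464) in GC+GW9662 against GC, and without GC replicate 1 the second was 0.48 and passed. For Atp6v0e the values were 0.86 ± 0.25 (adjusted p = 0.019) and 0.29 ± 0.22 (adjusted p = 0.287), the second 0.55 and passing without GC replicate 1. The first Atp6v0e call was lost when either Control library was left out. Atp6v1g1, a V1 stalk subunit, had means of 208, 489.7 and 416 TPM and rose by 1.20 ± 0.19 (adjusted p = 0.000918) in GC against Control.

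Atp6v1a, the catalytic subunit that binds ATP, had 299 and 284 TPM in Control, 262, 523 and 467 TPM in GC, and 103, 62.3 and 92.9 TPM in GC+GW9662. GC replicate 1 lay below Control and the other 2 GC libraries above it, and all GC+GW9662 libraries were the lowest. The log2 difference was 0.45 ± 0.31 (adjusted p = 0.249) in GC against Control, and 0.76 without GC replicate 1, when it passed (limma adjusted p = 0.0131). In GC+GW9662 against GC it was -2.24 ± 0.28 (adjusted p = 0.000278). Atp6v1f, a subunit of the central stalk, had 318 and 366 TPM in Control, 549.8, 332 and 414 TPM in GC, and 701, 825 and 725 TPM in GC+GW9662. GC+GW9662 was the highest group for it, and GC overlapped Control. Its log2 difference was 0.31 ± 0.20 (adjusted p = 0.222) in GC against Control and 0.82 ± 0.18 (adjusted p = 0.00469) in GC+GW9662 against GC. The first passed as a rise in 2 of 21 alternative settings. The accessory genes Atp6ap1 and Atp6ap2 had means of 635, 543 and 557 TPM and 191, 228 and 185 TPM. Of the 2, Atp6ap2 fell by 0.30 in GC+GW9662 against GC (limma adjusted p = 0.0336), and this call was lost in 11 of 21 alternative settings. In GC against Control Atp6ap2 did not pass, but it passed as a rise in 4 of 21.

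**Figure D3:**
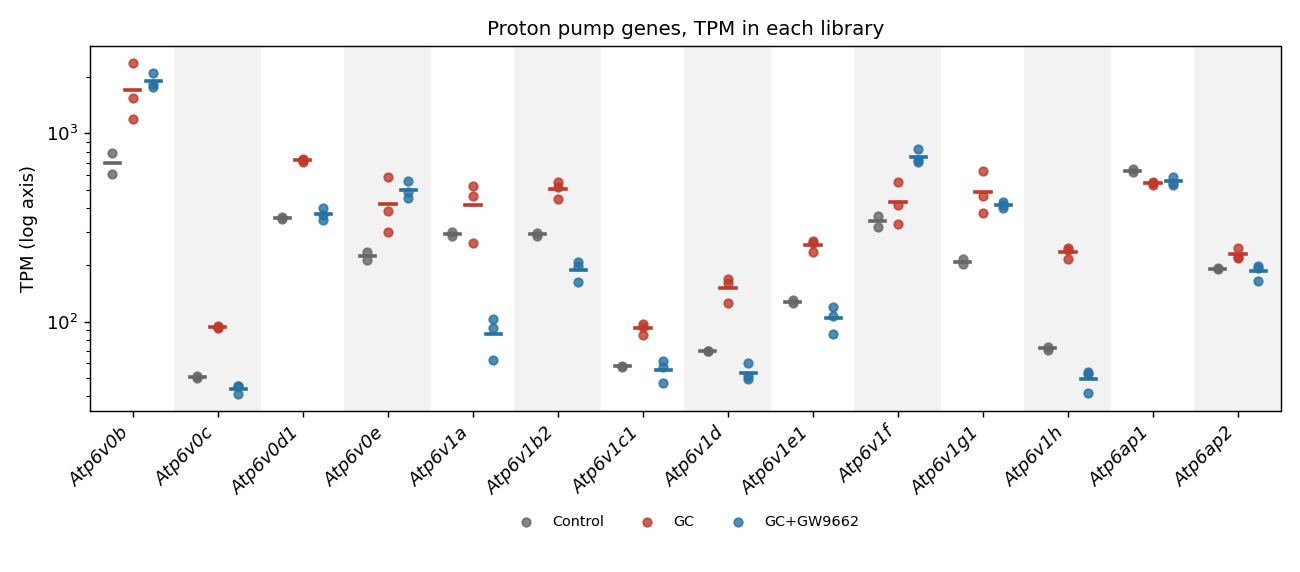
TPM (log axis) of the 14 proton pump genes in each of the 8 libraries (points, coloured by group) with group means (bars). Atp6v1h, Atp6v0c and Atp6v0d1 are highest in GC and fall back in GC+GW9662, whereas Atp6v0b, Atp6v0e and Atp6v1f are as high or higher with the inhibitor.

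With the inhibitor added, in GC+GW9662 against GC, 1 pump gene rose, 9 fell and 4 did not pass, while 16 soluble proteins rose, 10 fell and 5 did not pass. Of all genes 61.7% were called, 28.3% as higher and 33.5% as lower. For 43 of the 52 genes the groups did not overlap, with 64.1% of all genes so separated. The median log2 difference was -0.84 for the pump and 0.51 for the soluble proteins, against -0.11 for all genes. The pump gene that rose was Atp6v1f. The V0 and V1 sectors had 0 and 1 rises and 2 and 6 falls, and the lipid hydrolases 4 rises and 2 falls. Of the membrane proteins 2 rose, Cd63 and Scarb2, and 4 fell. This comparison and the previous one share the GC libraries, so opposite signs in them are not independent of each other.

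In GC+GW9662 against Control, 5 of the 52 genes were higher, 35 were lower and 12 did not pass, with 62.7% of all genes called, 14.1% as higher and 48.6% as lower. The groups did not overlap for 45 of the 52 genes, with 79% of all genes so separated. None of the 31 soluble proteins was higher and 27 were lower, with a median log2 difference of -0.85 against -0.50 for all genes, but with median-ratio scaling 3 were higher and 12 lower, and after removal of the length trend 4 and 15. The share of higher genes among all calls was 22.5%, against 48.5% with median-ratio scaling, 48.7% with quantile normalization and 50.9% after removal of the length trend. Cd63, Atp6v0b, Atp6v0e, Atp6v1f and Atp6v1g1 were the higher genes, at log2 differences of 0.81, 1.46, 1.15, 1.13 and 0.999. The Cd63 call was lost without Control replicate 1 (limma adjusted p = 0.0543). The largest falls by group were those of Ctsa at -1.30, Tpp1 at -1.38, Man2b1 at -2.11, Psap at -1.24, Laptm5 at -1.29 and Atp6v1a at -1.78.

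Summed over genes, TPM of the soluble proteins was 22640.0 and 21890.0 in Control, 14675, 16945 and 16363 in GC, then 13793, 10756 and 12859 in GC+GW9662. Pump genes summed to 3514 and 3709 TPM in Control, 7124, 5609 and 6138 TPM in GC, and 5160, 5446.5 and 5175 TPM in GC+GW9662. The pump was highest in GC and the soluble sum highest in Control, with no overlap between either treated group and Control. Pump RNA thus amounted to 15.5 and 16.9% of soluble RNA in Control, 48.5, 33.1 and 37.5% in GC, then 37.4, 50.6 and 40.2% in GC+GW9662. This ratio within a library does not depend on scaling between libraries. It can move with transcript length, since TPM divides by it. Of the pump sum in GC+GW9662, Atp6v0b made up 1898 TPM on average. By gene, 4 of the 14 pump genes were higher in GC+GW9662 than in Control, 3 were lower and 7 did not pass. Their median log2 difference was -0.13, so the higher pump sum does not describe the pump genes as a whole. All 52 genes together took 3.08 and 3.01% of all TPM in Control, 2.65, 2.87 and 2.82% in GC, then 2.21, 1.88 and 2.1% in GC+GW9662.

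**Figure D4:**
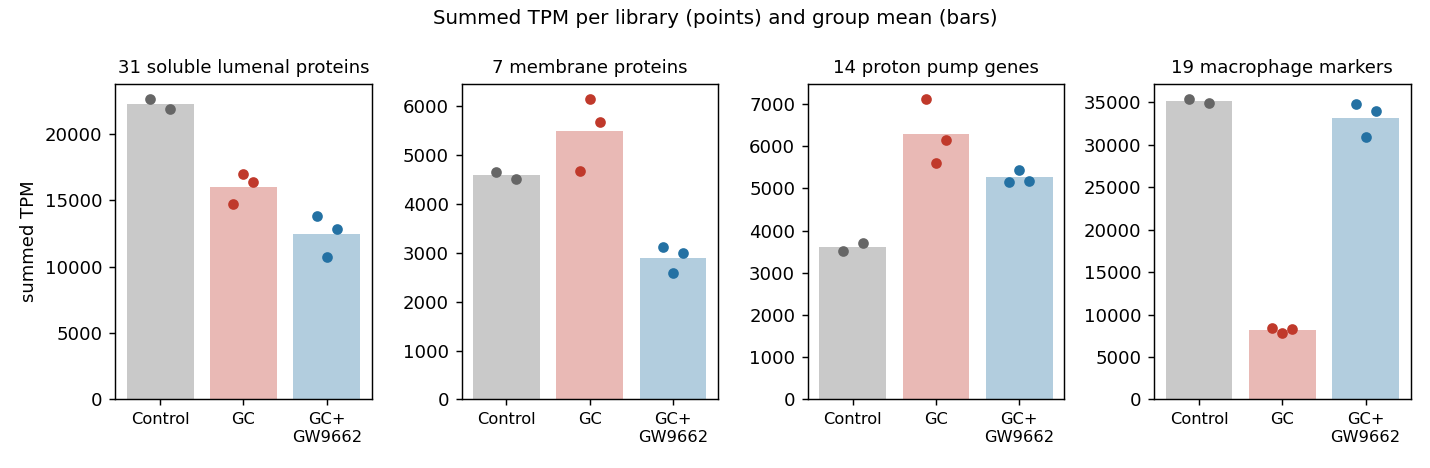
Summed TPM (y axis, from 0) of the gene groups in each library (points) with the group mean (bars) for Control, GC and GC+GW9662. The pump sum is 3514 to 3709 TPM in Control and 5609 to 7124 TPM in GC, while the soluble sum is lower in both treated groups than in Control.

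Genes around these 52 were counted in lists of further lysosomal genes. Of 25 other hydrolases and cofactors, 2 rose and 12 fell in GC against Control, and 9 rose and 10 fell in GC+GW9662 against GC. The shares called were 56.0% and 76.0%, beside 55.3% and 61.7% of all genes. In GC against Control their median log2 difference was -0.34, near the -0.38 of all genes, so the deeper fall of the 31 soluble proteins was not seen here. With median-ratio scaling the first counts were 6 and 9, and with the length trend removed 7 and 9. Scpep1, a serine carboxypeptidase, rose by 0.60 on the log2 scale. Pla2g15, a lysosomal phospholipase, and Acp5, an acid phosphatase of osteoclasts and macrophages, had log2 differences of -3.05 and -3.16.

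Of 20 other membrane proteins and transporters, 7 rose and 6 fell in GC against Control, 65.0% called beside 55.3% of all genes. With median-ratio scaling 10 rose and 3 fell. Ctns, the cystine transporter, and Tmem192 had log2 differences of 0.98 and 1.12. The calcium and sodium channels Tpcn1 and Tpcn2 had -2.77 and -1.81, and the sialic acid transporter Slc17a5 had -1.33. Of 11 other pump subunits 6 were tested, with 1 rise and 1 fall in GC against Control, 33.3% called. Their median log2 difference was 0.14, against 0.87 for the 14 pump genes of the set. With median-ratio scaling there were 5 rises and 1 fall. Atp6v0d2, the osteoclast and macrophage form of the d subunit, had means of 15.4, 49.7 and 9.97 TPM and rose by 1.61, while Atp6v0a1 had means of 195, 30.4 and 70.5 TPM and a log2 difference of -2.70.

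The machinery that delivers hydrolases had 1 rise and 6 falls among 11 genes in GC against Control, 63.6% called beside 55.3% of all genes. With median-ratio scaling there were 4 rises and 4 falls, and with the length trend removed 5 and 5. Vps26a, of retromer, had a log2 difference of 1.20, and Sort1, a sorting receptor, Gnptab and Nagpa, the enzymes that make the mannose 6-phosphate tag, had -3.31, -2.48 and -1.23. Of the mannose 6-phosphate receptors, M6pr had 0.16 (limma adjusted p = 0.367) and Igf2r -2.00. Among the MiT/TFE factors, Tfeb had means of 18.8, 7.41 and 13.1 TPM and log2 differences of -1.25 and 0.76. Tfe3 had means of 42.9, 40.6 and 14.9 TPM, with -0.15 (limma adjusted p = 0.69) and -1.31. Mitf had means of 22.1, 3.31 and 4.48 TPM and Tfec of 5.24, 1.73 and 2.32 TPM, with -2.51 and -1.20 in GC against Control. The Tfec difference was -0.49 with quantile normalization and -0.56 with the length trend removed and passed in neither (limma adjusted p = 0.207 and 0.121). None of these 4 factors rose in GC against Control, except that Tfe3 had 0.77 and passed when the length trend was removed (limma adjusted p = 0.000747).

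Ragulator, the Rag GTPases and folliculin tether mTORC1 to the lysosome. Of 11 tested genes of this group 5 rose and 2 fell in GC against Control, 63.6% called beside 55.3% of all genes. With median-ratio scaling 7 rose and 1 fell. Rragc, Flcn and Lamtor3 had log2 differences of 1.04, 0.84 and 0.75, and Lamtor4 and Lamtor2 had -1.79 and -1.07. Of 6 cathepsin inhibitors 3 rose and 1 fell in GC against Control, 66.7% called. With median-ratio scaling 2 of 5 tested rose and 0 fell. Cstb, an intracellular inhibitor of cysteine cathepsins, had means of 746, 2449 and 1479.9 TPM and rose by 1.67. Cst3, the secreted inhibitor cystatin C, had means of 3468, 2129.6 and 5220.3 TPM, with -0.72 in GC against Control and 1.31 in GC+GW9662 against GC. Serpinb6a, an inhibitor of cathepsin G, rose by 0.39, and Cst6 rose by 0.65 from a mean of 0.3 to 1.06 TPM.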

How the data were processed

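Per the submitters' processing notes, the authors used fastp, HISAT2 2.1.0 and featureCounts, and deposited TPM per gene for 8 libraries in 1 table; the genome build is not given in the sources used here, but 97.6% of rows have the starts and ends of GENCODE M21 (GRCm38). After removal of 98 repeated rows, 54134 genes remained. Depth is not given. Steps in low TPM values put it at roughly 36203717 and 38074967 assigned reads in Control and 27510317, 39320907 and 38383963 in GC. In GC+GW9662 it was 25213334, 25255088 and 26686452 reads. The GC+GW9662 libraries and GC replicate 1 were thus the shallowest, and the part of depth in the results was not tested. The 8 libraries were fitted together with limma 3.58.1 (R 4.3.3) on log2(TPM + 1), with an intensity-trended prior, two-sided p-values and a threshold of 0.05 after Benjamini-Hochberg adjustment over the 14985 genes that reached 1 TPM in 2 or more libraries. The pseudocount understates changes of low genes. The fit was also run on simulated data with independent noise and few changed genes. Those settings differ from these libraries, so that run does not bear on the calls here.

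Values in every library are given for the largest changes of each gene group in each comparison and for Lamp1, Lamp2, Ctsd, Ctsb, Ctsl, Ctss, Cd68, Glb1, Atp6v0c and Atp6v1a. Hexa, Atp6v0d1 and Atp6v0e were added after their values were seen. From each list of further genes, up to 3 passing genes per direction with the smallest adjusted p are named, and some genes that this rule picks are not reported here. The 52 genes and the lists were chosen with earlier results of these data known. Alternatives covered pseudocount, filter, scaling, prior, samples in the fit, replicate blocks and leaving out each library; removal of a trend with exon length was added after seeing the data. Replicate pairs differed by more than sampling noise (chi-square per degree of freedom 2.21 to 14.2). Promoter windows came from RefSeq.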

Additional observations from a re-analysis of the deposited data

How the results depend on the processing

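With pseudocounts of 0.1 or 5, a filter of 5 TPM or none, either other prior, rescaling without mitochondrial and top genes, or only the compared groups in the fit, no count over the 52 genes moved by more than 1.5 times. Scaling did move counts. With median-ratio scaling 22 genes rose in GC against Control in place of 14, and in GC+GW9662 against Control 16 were higher and 14 lower in place of 5 and 35. With quantile normalization 9 were higher in the last comparison, and with the length trend removed 16 were higher and 19 lower. Leaving out 1 library at a time gave 12 to 15 rises and 20 to 27 falls in GC against Control, 17 to 21 and 19 to 25 in GC+GW9662 against GC, and 4 to 5 and 27 to 37 in GC+GW9662 against Control. Without GC replicate 1 the pump had 3 rises in GC+GW9662 against GC in place of 1. Without GC+GW9662 replicate 1 the pump had 5 falls in GC+GW9662 against Control in place of 3, as with only the 2 groups in the fit.

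A replicate block by title number gave 13 rises and 23 falls, 17 and 20, and 5 and 33 in the 3 comparisons in that order, and by the number in brackets 14 and 22, 17 and 20, and 5 and 33. The labels do not state a pairing. Deviations of same-numbered GC and GC+GW9662 libraries correlated at -0.10, -0.12 and 0.08 across genes, and those of differently numbered ones at -0.10 to 0.14. So few correlations cannot exclude a pairing.

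Signs of single genes turned only with scaling or the length trend, counting genes that passed in either setting. In GC against Control, median-ratio scaling gave a log2 difference of 0.11 for Naglu, 0.11 for Lipa, 0.47 for Lamp1 and 0.37 for Lamp2, and removal of the length trend gave 0.37 for Tpp1, 0.26 for Lipa and 0.77 for Lamp2. In GC+GW9662 against GC, removal of the length trend gave 0.11 for Lipa and 0.14 for Mcoln1, and quantile normalization gave -0.28 for Atp6ap1. In GC+GW9662 against Control, removal of the length trend gave 0.25 for Ctsb, 0.50 for Ctsc, 0.20 for Ctsf, 0.72 for Ctsh, 0.71 for Ctsl, 0.73 for Ctso, 0.011 for Ids, 0.086 for Gm2a, 0.37 for Lipa, 0.75 for Lamp2, 0.12 for Scarb2, 1.14 for Mcoln1, 0.36 for Atp6v1b2, 0.97 for Atp6v1c1, 0.46 for Atp6v1d, 0.41 for Atp6v1e1 and 0.95 for Atp6v1h. Median-ratio scaling gave 0.11 for Ctsc, 0.58 for Ctsh, 0.24 for Ctsl, 0.35 for Ctss, 0.13 for Ctsz, 0.34 for Naglu, 0.054 for Gm2a, 0.17 for Asah1, 0.20 for Smpd1, 0.52 for Mcoln1, 0.48 for Atp6v0c, 0.060 for Atp6v1b2, 0.61 for Atp6v1c1, 0.30 for Atp6v1d, 0.38 for Atp6v1e1, 0.14 for Atp6v1h, 0.50 for Atp6ap1 and 0.64 for Atp6ap2 there. Quantile normalization gave 0.36 for Mcoln1, 0.31 for Atp6v0c and 0.36 for Atp6v1c1. The causes of these turns were not tested. TPM fixes each library's total, so which scaling is right cannot be told from these files, and with 2 or 3 libraries per group small differences cannot be resolved.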

Other observations

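The deposited table also annotates genes to the KEGG Lysosome pathway. Of 122 annotated genes 111 were tested, and 20 were higher and 55 lower in GC against Control, 67.6% called beside 55.3% of all genes. Of these, 38 genes belong to none of the groups described above, and 28 of them were tested, with 5 higher, 12 lower and 11 not passing. That is 60.7% called, near the 55.3% of all genes. They were singled out after their values were seen. Slc11a2, an iron transporter also known as DMT1, rose from a mean of 34.7 to 128 TPM in GC and was 30.2 TPM in GC+GW9662, at log2 differences of 1.86 (limma adjusted p = 6e-06) and -2.05. Slc11a1, a divalent metal transporter of phagosomes, had means of 220.1, 430.5 and 174 TPM and log2 differences of 0.96 and -1.30. Ap1b1, a subunit of an adaptor that sorts cargo at the trans-Golgi network, had means of 245, 21.5 and 45.1 TPM and a log2 difference of -3.53 in GC against Control.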
